A study of Mus musculus with 2 samples.

Results

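The DNA replication licensing genes are taken here as 10 genes: the 6 subunits of the MCM2-7 helicase (Mcm2, Mcm3, Mcm4, Mcm5, Mcm6 and Mcm7), the loading factors Cdc6 and Cdt1, the replisome factor Mcm10 and Pcna, the sliding clamp of DNA polymerase. The probe sets were found by gene symbol alone, and the set of genes was chosen with earlier results of these data known. All 10 were read, by 27 probe sets of the 45101 on the array, and none of the 27 names a further gene. RNA came from 2 cultured mouse lines, titled S1 and S2, both derived from lung squamous cell carcinoma (SCC) of KA/KA mice, which carry a kinase-dead Ikkα knock-in on an FVB background. S1 is described as high in Sca1 and more tumorigenic and is read here, from that description, as the study's KALLU+ line (Sca1 high, CD24 negative). S2 is described as low in Sca1 and less tumorigenic and is read as KALLU- (Sca1 low, CD24 positive). Both were obtained by flow sorting for Sca1 and CD24 from the KALLU tumour cell line, were grown in the same serum-containing medium with no treatment named in the labels, and carry the same knock-in, so no line without it stands beside them.

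Before a cell can copy its DNA, each replication origin has to be licensed. In late mitosis and G1, the origin recognition complex and CDC6 hold DNA while CDT1 delivers the ring-shaped MCM2-7 helicase, which is loaded around it as an inactive double ring. At the start of S phase, kinases together with CDC45, the GINS complex and MCM10 turn the loaded ring into the active CMG helicase (CDC45, MCM2-7 and GINS). PCNA is then loaded at primer ends and tethers DNA polymerase and many repair and chromatin factors. CDT1 is destroyed in S phase and held by geminin, so that no origin is licensed again before division. These genes are classical targets of the E2F transcription factors and are widely read as markers of proliferating cells, in squamous carcinoma as in other tumours. RNA levels do not show how much helicase is loaded on DNA. Nor do they measure growth: by a cell proliferation assay (MTT), the study reports faster growth of KALLU+ than of KALLU- cells.

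Because E2F sites are the best known control shared by these genes, promoter sequence was looked up first. RefSeq's promoter table for GRCm38.p6 (250 bases before to 50 bases after the start of a gene) matched 9 of the 10 genes; Mcm4 is named only. The letters TTTNNCGC, written for the E2F site, were searched on both strands, and overlapping matches were counted as 1 stretch. They occurred in 6 of the 9 genes (Mcm3, Mcm5, Mcm6, Mcm7 in 1 of its 2 windows, Cdc6 and Cdt1), against 5.17% of all 32851 promoter windows. The Mcm2, Mcm10 and Pcna windows held no match to these letters. The Mcm10 window ends inside a stretch that follows these letters as far as it runs, so a match across that edge would be missed. The letters CCAAT occurred in 7 of the 9 genes and in 37.4% of all windows. For both sets of letters the members were counted by gene, with 1 matching window enough, and the background by window. These shares are therefore not in the same unit. Shown here are the windows of the gene with the lowest array value (Cdt1, chr8:122567765-122568064 on the plus strand), of the gene with the highest (Mcm6, chr1:128359656-128359955 on the minus strand), of 1 more subunit with matches (Mcm3, chr1:20820263-20820562 on the minus strand) and of 1 without (Mcm2, chr6:88898731-88899030 on the minus strand). Each is written 5′ to 3′ along its gene, and capitals mark the matches.
Cdt1: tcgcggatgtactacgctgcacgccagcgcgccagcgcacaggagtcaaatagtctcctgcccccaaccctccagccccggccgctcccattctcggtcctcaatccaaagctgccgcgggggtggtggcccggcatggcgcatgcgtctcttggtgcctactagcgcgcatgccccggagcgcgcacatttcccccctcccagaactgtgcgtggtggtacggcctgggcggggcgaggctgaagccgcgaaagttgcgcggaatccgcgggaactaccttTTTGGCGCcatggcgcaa
Mcm6: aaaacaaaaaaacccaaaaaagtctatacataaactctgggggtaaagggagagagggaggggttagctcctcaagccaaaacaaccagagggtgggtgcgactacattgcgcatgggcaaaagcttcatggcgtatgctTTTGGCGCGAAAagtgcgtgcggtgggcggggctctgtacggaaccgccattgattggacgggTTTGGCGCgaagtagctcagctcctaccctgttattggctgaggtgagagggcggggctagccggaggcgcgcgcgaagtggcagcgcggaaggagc
Mcm3: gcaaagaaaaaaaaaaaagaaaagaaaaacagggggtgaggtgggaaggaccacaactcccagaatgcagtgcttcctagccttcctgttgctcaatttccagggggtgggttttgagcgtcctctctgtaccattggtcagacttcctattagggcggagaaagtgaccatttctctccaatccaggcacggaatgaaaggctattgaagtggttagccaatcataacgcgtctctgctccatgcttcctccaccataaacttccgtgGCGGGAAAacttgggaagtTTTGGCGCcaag
Mcm2: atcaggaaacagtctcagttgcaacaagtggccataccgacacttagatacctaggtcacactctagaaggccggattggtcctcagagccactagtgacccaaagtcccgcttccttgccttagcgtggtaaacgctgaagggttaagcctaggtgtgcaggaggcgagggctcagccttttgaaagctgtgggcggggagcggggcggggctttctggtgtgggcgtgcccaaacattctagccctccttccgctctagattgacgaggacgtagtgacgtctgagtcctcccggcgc
The Mcm6 and Mcm3 windows each held 2 such stretches and the Cdt1 window held 1, in the stretch after the start of the gene.

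The deposited table holds 1 signed fold change per probe set, S1 over S2, with 1 sample per line. It gives no signal, detection call or p-value, so that the brightness of each probe set is unknown, a level in either line cannot be stated, and no test between the lines could be made. All values given here are differences on the log2 scale unless called a fold, a value below 0 means lower in S1, and where several probe sets read 1 gene and no other, their median stands for that gene (20679 genes). Statements of higher and lower describe these 2 samples only. To show scatter, probe sets for olfactory or vomeronasal receptors, 76 in number and taken as silent in both lines, lay between -0.55 and 0.38 (SD 0.17). That range is set by the lowest and highest of them, and scatter at the brightness of other probe sets is unknown. Probe sets of 1 gene differed by a pooled SD of 0.49. The bacterial poly-A control RNAs added before labelling had a median of -0.45 over 24 probe sets, and the hybridisation controls a median of -0.14 over 18. Ly6a, which encodes Sca1, was at -2.57 (a single probe set), opposite to what S1 is labelled as, whereas Cd24a, at -5.73 over 3 probe sets, went with the label; directions therefore rest on the sample titles, and S1 and S2 mean the lines so labelled. The squamous markers that could be read (7 genes, Krt5, Krt14 and Trp63 among them) lay between -0.09 and 0.36. The 3 immune markers lay between -0.13 and -0.05, and the 2 endothelial markers at -0.03 and 0.31. Of 8 mesenchymal and fibroblast markers, 3 (Fap, Col3a1 and Pdgfrb) were at least 2-fold lower in S1, beside 5.08% of all genes. None was 2-fold higher, 6 of the 8 were below 0, and Vim (0.09) and Cdh2 (0.80) were above 0. Without signals, none of these values shows whether a marker is present or absent.

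As a group, the licensing genes were slightly lower in S1, without a large change in any of them. The median over the 10 genes was -0.48, a level in S1 of 71.9% of that in S2, where the median of all genes was -0.04. Of the 10 genes, 9 had values below 0 and only Mcm6 a value above 0; among all genes, 56.2% were below 0. No member was 2-fold changed by its median: 0 of 10 were at least 2-fold higher, where 4.69% of all genes were, and 0 of 10 at least 2-fold lower, where 5.08% were. By probe set, 23 of 27 (85.2%) were below 0, against 52.1% of all probe sets, but only 3 of 27 (11.1%) were at least 1.5-fold lower, near the 10.7% of all probe sets. At least 2-fold higher was 1 probe set, of Mcm5, where 6.73% of all probe sets were. Of the 27 probe sets, 21 lay inside the full range of the receptor probe sets, 5 below it and 1 above it. The share of all probe sets inside that range was not counted, so these counts show nothing particular to the members. By gene medians, only Cdt1 lay below that range (12.3% of all genes did) and none above it.

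**Figure D1:**
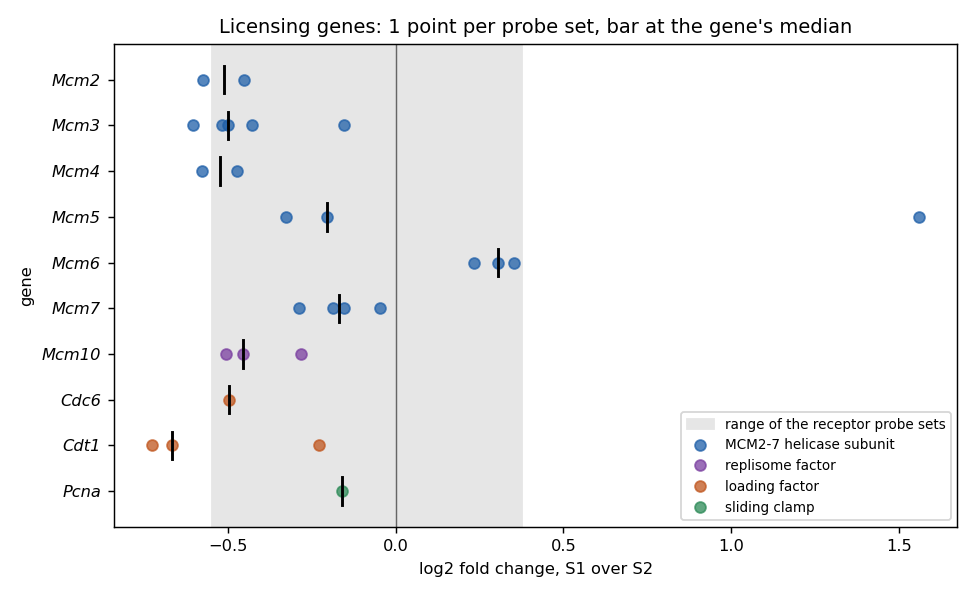
The horizontal axis is the log2 fold change of S1 over S2, and each point is 1 of the 27 probe sets of the 10 licensing genes (rows), coloured by role, with a black bar at the gene's median; grey marks the range of the 76 receptor probe sets, from -0.55 to 0.38. Most points sit left of 0 within the grey range, all 3 points of Mcm6 sit right of 0, and 1 point of Mcm5 stands apart at 1.56.

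The size of the shift also depended on scaling. Centred on the poly-A controls, every value is raised by 0.45, the median of the 10 genes became -0.03 and that of all genes 0.40. Then 6 of the 10 genes stayed below 0, where 15.6% of all genes did, and Mcm5, Mcm7 and Pcna lay above 0 beside Mcm6. The distance of the members' median from that of all genes, -0.43, is the same under either scaling by construction, since every gene is raised by the same amount. Whether S1 held less of these RNAs per cell therefore cannot be read from this table, and the unchanged distance is no check of it.

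**Figure D2:**
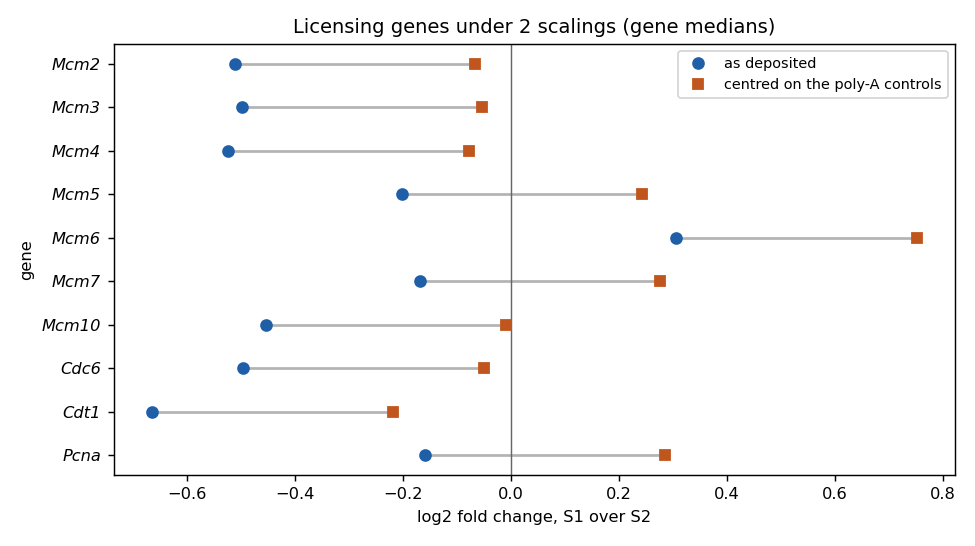
Each row is a licensing gene, with its median log2 fold change of S1 over S2 (horizontal axis) as deposited (circle) and centred on the poly-A controls (square), which adds 0.45 to each. As deposited 9 of 10 genes are below 0, and after centring 6 are, with Cdt1 the lowest at -0.22.

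Among the loading factors, Cdt1, which brings MCM2-7 to the origin, had the lowest value of all members. Its 3 probe sets were at -0.73, -0.67 and -0.23, and the median of -0.67 corresponds to a signed fold of -1.59; 9.57% of all genes were lower still. Both of the lower probe sets lay below the receptor range and the other one inside it. Cdc6, the ATPase that works with the origin recognition complex to load the ring, was read by 1 probe set at -0.50, inside the receptor range. Cdt1 and Cdc6 thus lay on the same side of 0, at 63.0% and 70.9% of the S2 level.

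The subunits of the MCM2-7 ring are given here in 3 sets by value, a split made after their values were seen. Mcm2, Mcm3 and Mcm4 lay close together, at -0.51, -0.50 and -0.52. For Mcm2 the pair of probe sets gave -0.57 and -0.45, and for Mcm4 -0.58 and -0.47. The 5 probe sets of Mcm3 ran from -0.60 to -0.15, with 4 of them at or below -0.43. The level in S1 was 70.1% of that in S2 for Mcm2, 70.8% for Mcm3 and 69.5% for Mcm4, and the ranges of their probe sets overlapped.

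Mcm5 and Mcm7 were nearer 0, at medians of -0.20 and -0.17. The 4 probe sets of Mcm7 were all below 0, from -0.29 to -0.05, and all lay inside the receptor range. Mcm5 was the 1 member whose probe sets disagreed in direction, with values of -0.33, -0.20 and 1.56. The highest of these, probe set 1459658_at, was 2.95-fold higher in S1 and exceeded 97.1% of all probe sets, while the other two gave a mean of -0.26 ± 0.09 (SD over 2 probe sets). Which transcript it reads could not be looked up here, and the value of Mcm5 turned with the rule: 0.34 by the mean over its 3 probe sets and -0.20 by the median.

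Mcm6 was the only subunit, and the only member, with a value above 0 by the median. Its 3 probe sets agreed closely, at 0.23, 0.30 and 0.35, so that S1 was at 124% of S2. All 3 were above every probe set of Mcm2, Mcm3, Mcm4 and Mcm7, whose highest was at -0.05, but below the 1.56 of 1 probe set of Mcm5. By the mean over probe sets, Mcm5 (0.34) was above Mcm6 (0.30). By the median, Mcm6 was 0.47 above Mcm7, the next subunit, and 0.80 above the median of the other 5. All 3 probe sets of Mcm6 nevertheless lay inside the receptor range, and 83.5% of all genes had a lower value. The 6 subunits form a ring with 1 copy of each, and their RNA values here spanned 0.83 between Mcm4 and Mcm6.

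Mcm10, which binds the activated helicase, was at -0.46, with probe sets at -0.51, -0.46 and -0.28. Pcna was read by 1 probe set at -0.16, the value nearest 0 among the members, and 34.5% of all genes were lower. In order from lowest to highest, the genes ran Cdt1, Mcm4, Mcm2, Mcm3, Cdc6, Mcm10, Mcm5, Mcm7, Pcna and Mcm6. Of the 9 steps between neighbours in this order, 0 exceeded the array's pooled SD of 0.49, the largest being 0.47 from Pcna to Mcm6. Of the 8 members with 2 or more probe sets, 7 had them all on 1 side of 0, as did 57.1% of the 9609 genes with 2 or more. Except for Mcm5, the SD between probe sets of a member lay between 0.06 (Mcm6) and 0.27 (Cdt1), below the pooled SD of the array.

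**Figure D3:**
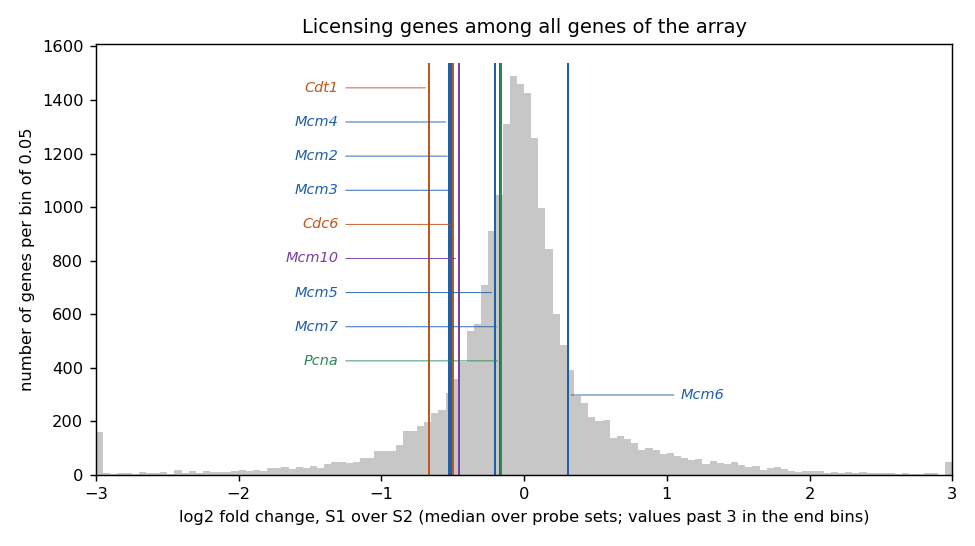
Grey bars count all 20679 genes by their median log2 fold change of S1 over S2 in bins of 0.05 (189 genes past 3 in either direction are in the end bins), and coloured lines mark the 10 licensing genes. Of the members, 6 lie between -0.67 and -0.46 on the left shoulder, 3 between -0.20 and -0.16 and Mcm6 at 0.30, none in the tails.

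The genes that act with the licensing factors did not share a common direction. Over 11 lists of replication and cell cycle genes, 124 of 127 genes had a value; 11 (8.87%) were at least 2-fold higher in S1, beside 4.69% of all genes, and 2 (1.61%) at least 2-fold lower, beside 5.08%. Their median was 0.04. The list of origin recognition and MCM loading genes lay higher than the licensing genes, with a median of 0.31 over 11 genes, 8 above 0 and 3 below. Orc4, a subunit of the origin recognition complex, was 2-fold higher, at 1.09. The neighbouring subunits Orc2 to Orc6 lay between 0.31 and 1.09 with 12 of 12 probe sets above 0, whereas Orc1 was at 0.11. Gmnn, which encodes the CDT1 inhibitor geminin, was at 0.04. Mcm8 and Mcm9, relatives of the ring subunits that act in DNA repair, were at -0.82 and -0.01. These subunits, and those of the GINS and clamp loader complexes, were picked out as complexes after their values had been seen.

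The partners that complete the CMG helicase were, like the ring subunits, mostly below 0. Cdc45 was at -0.80, with probe sets at -0.95 and -0.66. Of the GINS genes, Gins2 was 2-fold lower at -1.31, Gins1 was at -0.51 and Gins4 at -0.60, with 5 of 5 probe sets below 0, whereas Gins3 was at 0.28 with both probe sets above 0. The 11 CMG genes include the 6 ring subunits already given above. Of the 11, 9 were below 0 and 2 (Mcm6 and Gins3) above, where 56.2% of all genes were below 0. Their median was -0.51. At least 2-fold lower was 1 of the 11, where 5.08% of all genes were, and none was 2-fold higher. The helicase-activating kinase Cdc7 and its partner Dbf4 were at -0.02 and 0.23, and the list of activation factors as a whole had a median of -0.02 over 13 genes, with 1 at least 2-fold lower and 0 at least 2-fold higher.

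At the fork, the subunits of the clamp loader RFC lay on both sides of 0. Rfc2, Rfc3, Rfc4 and Rfc5 lay between -0.78 and -0.30, with 8 of 8 probe sets below 0, and the large subunit Rfc1 was at 0.87 with 3 of 3 above 0. The list of PCNA loading and unloading genes had a median of -0.30 over 9 genes, and 0 were 2-fold changed in either direction. Among 19 genes of DNA synthesis, with a median of -0.03, Pola1, the catalytic subunit of the primase-linked polymerase, was at 1.13 and Pole4, a small subunit of polymerase epsilon, at -1.39, and no other member of that list was 2-fold changed. Both rested on probe sets that were apart, from 0.31 to 1.94 for Pola1 and from -1.62 to -0.25 for Pole4. Of 9 PCNA partners and modifiers with a value, whose median was -0.08, only Usp1, which removes ubiquitin from PCNA, was 2-fold higher, at 1.46 with its 3 probe sets from 1.36 to 1.46. Cdkn1a, which encodes the PCNA and kinase inhibitor p21, was at -0.96 and did not reach 2-fold.

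Control of the licensing window was read from further lists. Of 9 genes that direct CDT1 or CDC6 turnover, with a median of 0.19, Cul4b, a scaffold of the ubiquitin ligase that removes CDT1, was 2-fold higher at 1.32 and 0 were 2-fold lower; the CDT1 receptor of that ligase, Dtl, was at 0.55 over 6 probe sets. Of 13 E2F and pocket protein genes, with a median of 0.24, only E2f7, a repressor of E2F targets, was 2-fold higher, above 96.0% of all genes at its 1 probe set, and 0 were 2-fold lower. E2f1 was at -0.12 and E2f2 at -0.33. Among 9 G1/S cyclins and kinases with a value, with a median of 0.19, Ccne2, which encodes cyclin E2, was 2-fold higher at its 1 probe set, at 1.45, and 0 were lower, while Ccne1 was at -0.45. Of 6 fork protection and checkpoint genes, with a median of 0.70, the checkpoint kinase gene Atr was 2-fold higher at 1.23 and 0 were lower. Of 7 genes of nucleotide supply, with a median of 0.11, 0 were 2-fold changed in either direction.

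Mitotic genes, which mark the later part of the cycle, spread more widely than the licensing genes. Of 19 with a value, 4 were at least 2-fold higher (Mki67, Top2a, Kif11 and Cenpe, between 1.06 and 2.02), beside 4.69% of all genes, where the list's median was -0.07 and no gene was 2-fold lower. Mki67 rested on 1 probe set, and the 3 probe sets of Top2a, from -0.40 to 1.25, did not share a direction. The 10 licensing genes, spanning 0.97 from Cdt1 to Mcm6, lay within the range of that list. The E2F letter match was found in 30 of 97 genes of the 11 lists with a promoter window (30.9%). Their median of 0.23 stood beside 0.01 for the 67 without it. The 6 licensing genes with the match ran from -0.67 (Cdt1) to 0.30 (Mcm6). Those without it inside their windows, Mcm2, Mcm10 and Pcna, were at -0.51, -0.46 and -0.16. Whether the match goes with the values was not tested.

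**Figure D4:**
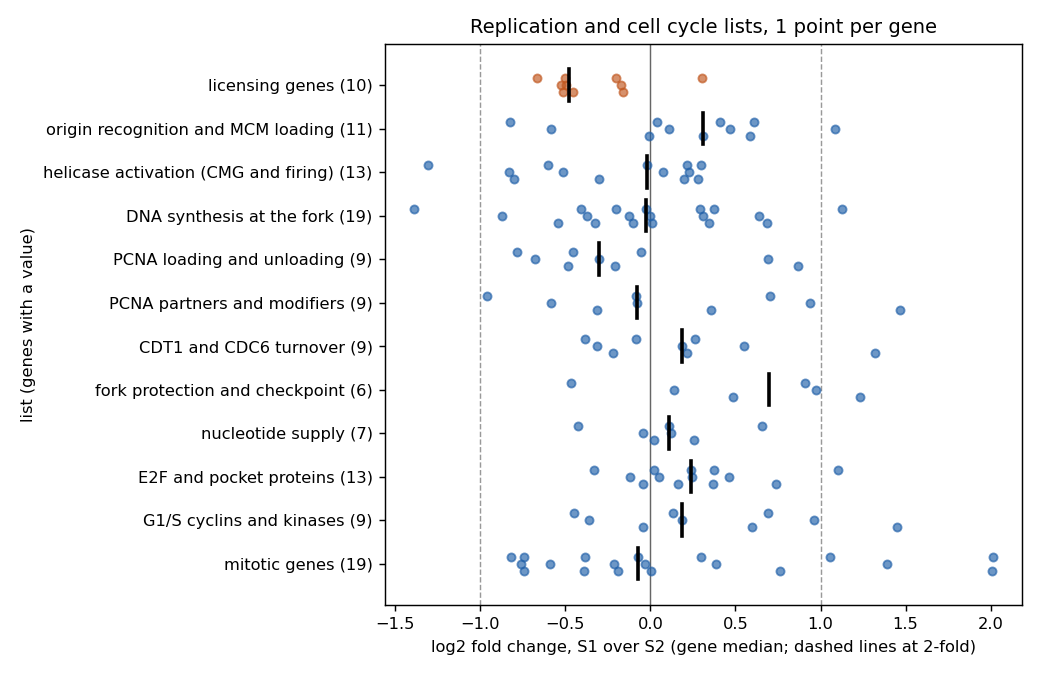
Each point is a gene's median log2 fold change of S1 over S2 (horizontal axis), by list (rows, with the number of genes that have a value); black bars are list medians and dashed lines mark 2-fold. The licensing genes (top row, median -0.48) have the lowest list median, none of them reaches a dashed line, and the mitotic genes (bottom row) run from -0.82 to 2.02.

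Higher values in these lists went with a longer genomic span of the gene. Over the 134 genes of the lists and the members together, Spearman's rho between span and log2 fold change was 0.43, with a median of 0.29 in the 67 longer genes and -0.20 in the 67 shorter ones; over the 18312 genes of the array with a span (88.6%) rho was 0.13. These are descriptions across genes, which share both samples and are not replicates. Among the 10 licensing genes alone rho was 0.285, with a median of -0.46 in the 5 longer and -0.51 in the 5 shorter. Mcm6 has the longest span, but Pcna and Mcm7, which with Cdt1 have the shortest, had the next highest values after Mcm6. The part of gene length in these values was not tested.

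**Figure D5:**
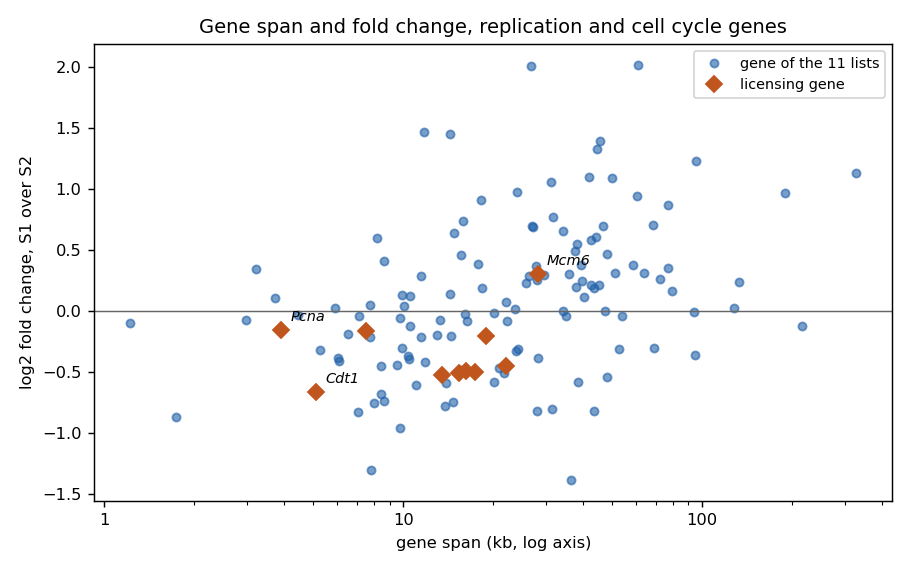
Points are genes of the 11 lists (blue) and the licensing genes (orange diamonds), by genomic span in kb on a log axis (horizontal) and log2 fold change of S1 over S2 (vertical). Longer genes lie higher on the whole (rho 0.43 over 134 genes), and Mcm6, the longest licensing gene, is the one diamond above 0.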

How the data were processed

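Total RNA of 2 lines, 1 sample each in the labels, was hybridised to Affymetrix GeneChip mouse arrays. The authors used Partek Genomics Suite, the submitters' processing notes name MAS5, and the normalization and the number of arrays are not given in the sources used here. The authors deposited a single score per probe set, a signed linear fold change of S1 over S2 in which a lower value in S1 is written as a negative reciprocal; that column is the authors' own comparison and is the table's only measurement, so it was used and its values are theirs. With no signals or replicates, the signal over background, and so the depth, is not known; no test was run.

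Folds were put on the log2 scale with their sign, and genes given the median over probe sets that name them alone; 5797 probe sets carry no gene symbol and 1280 carry several. The members and lists were chosen with earlier results of these data known, as were the receptor range and the poly-A centring. Named genes were the 10 members, list genes past 2-fold, and otherwise the largest change of a list, which for nucleotide supply is not reported here; every other list gene named in the text, such as Gmnn, Cdc7, Dtl, E2f1, Ccne1 or Cdkn1a, was chosen for its role after its value was seen. Older symbols were matched through RefSeq's gene table for GRCm38.p6, from which spans came; no probe set here names Chaf1a or Dsg3, and Cdk4 and Mad2l1 are named only with other genes, so these have no value. The gene medians and the 2-fold threshold were tested on simulated data, with planted 4-fold changes and noise smaller than the array's pooled SD. The other steps, and changes as small as those of the members, were not tested in this way. Alternatives were thresholds of 1.5-fold and 4-fold, other summaries of probe sets, probe sets without suffixes and 2 centrings. Software was matplotlib 3.10.9, scipy 1.17.1, pandas 2.3.3 and numpy 2.4.6 under Python 3.11.15.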

Additional observations from a re-analysis of the deposited data

How the results depend on the processing

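No paired analysis was possible because each line is 1 sample and only their ratio is given. The counts below 0 were added after seeing the data. A list's median was called moved when it shifted past the array's pooled SD (0.49) divided by the square root of the number of genes, a count when it changed by over 1.5 times. The median of the licensing genes, -0.48, stayed between -0.50 and -0.43 except on centring on the poly-A controls, where it was -0.03; that of MCM2-7, -0.35, was then 0.0946. The 23 probe sets below 0 were 12 on that centring and 11 of 13 without suffixed probe sets, which leaves fewer to count. The 9 genes below 0 were 6 on that centring, 6 of 8 without suffixed probe sets (Cdc6 and Mcm7 then have none) and 8 by the mean or by the probe set with the largest change. No member was 2-fold changed under any setting, except 1 gene, Mcm5, higher if its most changed probe set is taken (1.56); at 1.5-fold 1 member, Cdt1, was lower. Mcm5 turned above 0 by the mean (0.34) and without suffixed probe sets (0.62). Over the 11 lists, 11 genes higher and 2 lower became 26 and 16 at 1.5-fold, 2 and 0 at 4-fold, and 27 and 0 on the poly-A controls, by construction of those settings, and 21 higher by the largest probe set. All 11 list medians moved on the poly-A controls; of the other 55 values, 4 moved. Since no signal is given, a dim probe set cannot be told from a bright one.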

Other observations

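The 20 protein-coding genes on either side of the 10 licensing genes in RefSeq's order were read for comparison, and 17 had a value, from -0.75 to 1.57 with a median of -0.04. The lowest was Cds2 beside Pcna, at -0.75 over 6 probe sets, and the highest Optn beside Mcm10, at 1.57 over 2, while Pcna was at -0.16 and Mcm10 at -0.46. Both neighbours of Mcm4 were above 0 (Prkdc at 0.14 and Ube2v2 at 0.50), where Mcm4 was at -0.52. Both neighbours of Mcm7 were below it, Ap4m1 at -0.68 and Cops6 at -0.52. Dars and Lct, beside Mcm6, were at 0.93 and 0.06.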
